A study of Mus musculus with 8 samples.

Results

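Voltage-gated ion channels are membrane proteins that open when the voltage across the cell membrane changes. Sodium and calcium channels carry inward current that depolarises a muscle cell, potassium channels carry the outward current that returns it to rest, and pacemaker (Hcn) channels let cells depolarise on their own. In the embryonic outflow tract, the segment between the ventricles and the great arteries, the myocardium is known for slow conduction, which depends largely on calcium channels.

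The channel genes were chosen from the deposited gene table by symbol, taking those named as potassium (Kcn), voltage-gated sodium (Scn) and calcium (Cacn) channel genes and the pacemaker (Hcn) genes. The symbols matched 134 of 33495 rows (133 symbols, since Kcnh8 had 2 rows), and 85 members with at least 40 reads summed over the 8 libraries are described. They comprised 56 of 91 potassium, 8 of 13 sodium, 18 of 26 calcium and 3 of 4 pacemaker rows. Of the 49 rows left out, 9 had no read in any library. Kcnh5, with 40 reads, lay just inside the minimum, and Kcnt1 and Kcnip2, with 39 reads each, lay just outside. The symbols also take in genes whose channels are not gated by voltage, namely inward rectifiers (Kcnj), background potassium channels with a tandem pore (Kcnk) and channels opened by intracellular calcium or sodium, as well as auxiliary subunits, so the set is wider than its name.

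RNA was sequenced from outflow tracts of 4 mutant mouse hearts, labelled as carrying a Mef2c knockout conditional on the anterior heart field (AHF), and of 4 wild-type hearts, all on a CD-1 background. MEF2C is a transcription factor of muscle, and the anterior heart field is a progenitor population that builds the outflow tract and right ventricle. The driver of the deletion, the age of the embryos and whether samples came from separate embryos or pools are not stated by the labels. The p-values therefore describe the scatter among these 8 samples, part of which may be technical. Replicates 1 and 2 of each group were run on lane 1 and replicates 3 and 4 on lane 2.

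The targeted gene was still read in every library, with 1150 to 1423 gene-level Mef2c counts in mutant and 728 to 1207 in wild type (log2 fold change 0.32, adjusted p = 0.212, edgeR), a total that covers more than the deleted part and so cannot test the labels. The authors' deposited table gives -3.30 as the log2 ratio of the Mef2c exon that changed most. Libraries held 7697492 to 10006137 counts in mutant and 7138732 to 11012246 in wild type, so that 3 counts, taken as the floor of detection, equalled 0.278 to 0.413 counts scaled to a fixed library size (counts per 1e6, CPM). Heart muscle markers were present in every library, with a summed level of 25259 to 32355 CPM for 6 cardiomyocyte genes in mutant and 30391 to 41275 CPM in wild type. Genes of working chamber muscle (Nppa, Nppb, Myl2, Myl3, Gja5 and Smpx) varied more, with sums of 468, 357, 460 and 1147 CPM in mutant libraries 1 to 4 and 1444, 1860, 950.1 and 939.9 CPM in wild-type libraries 1 to 4. They were highest in mutant library 4 among the mutants and in wild-type library 2 among the wild types, which were on different lanes. Mutant library 1 and wild-type library 4 nearly lacked Y-linked reads.

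A short stretch of coding sequence shows what most potassium channel members share. The selectivity filter of a potassium channel is a loop whose signature, a hydroxyl or cysteine residue, an aliphatic residue, glycine, an aromatic or leucine residue and glycine, lines the narrowest part of the pore. The stretches below come from the longest reading frame of each gene's GENCODE M21 transcripts (GRCm38), read 5′ to 3′, and the capitals mark the 5 codons of the signature. They are shown for the 2 potassium channel genes that passed the test of mutant against wild type (Kcnk3 and Kcna4), the 2 most abundant per length (Kcnj5 and Kcnh2) and the pacemaker gene Hcn4.
Kcnk3, first pore: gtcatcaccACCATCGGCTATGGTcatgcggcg
Kcnk3, second pore: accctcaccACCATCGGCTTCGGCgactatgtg
Kcna4: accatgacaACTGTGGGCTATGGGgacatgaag
Kcnj5: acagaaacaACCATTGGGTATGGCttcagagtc
Kcnh2: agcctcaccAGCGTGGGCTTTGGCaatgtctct
Hcn4: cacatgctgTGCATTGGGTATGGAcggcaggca
Kcnk3 carried the signature at 2 places, residues 93 to 97 and 199 to 203 of the reading frame, and Kcna4 at 1, residues 525 to 529. Among all rows of the rule with a reading frame, the signature occurred exactly once in 29 of 29 voltage-gated alpha subunits, 10 of 10 silent alpha subunits, 14 of 14 inward rectifiers and 4 of 4 pacemaker channels. It occurred at 2 places in 11 of 13 tandem-pore genes. It was absent from 8 of 11 auxiliary subunits and from Kcnmb1, Kcnmb2 and Kcnmb4, which modulate pores built by other genes. The 3 auxiliary genes with a match were Kcnab1, Kcnab2 and Kcnab3, whose products are cytoplasmic, so a match is a description of letters and not a pore.

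Levels of different genes were compared per length, as CPM divided by the deposited summed exon length in kilobases (kb). The highest was Kcnj5, which encodes a subunit of the acetylcholine-activated inward rectifier of heart, at 27.4 ± 3.28 CPM per kb in mutant and 30.9 ± 7.41 CPM per kb in wild type (SD, n = 4 each). Next came Kcnh2, the pore of the rapid delayed rectifier that ends the cardiac action potential, at 15.3 ± 2.76 CPM per kb in mutant and 17.1 ± 3.53 in wild type. Kcnj5 lay above Kcnh2 by more than the spread in either group, whereas Kcnh2 and the gene after it, Cacna1h, overlapped within their SDs in both groups.

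Calcium channel genes filled many of the next ranks. Cacna1h, a low-voltage (T-type) calcium channel, stood at 12.9 ± 1.41 CPM per kb in mutant and 14.8 ± 2.13 in wild type, and Cacna1c, the main L-type calcium channel of heart, at 9.79 ± 1.15 and 14.2 ± 1.51 CPM per kb in mutant and wild type. The inward rectifier Kcnj2, which holds the resting potential, followed at 12.2 ± 2.68 CPM per kb in mutant and 10.2 ± 3.84 in wild type, within the SDs of Cacna1c in both groups. The 9 most abundant members held 50.6% of the summed level per length of all channel rows. By class, potassium channel genes held 64.4%, calcium 31.2%, sodium 2.43% and pacemaker genes 2.04% of that sum. The deposited exon length of some auxiliary genes was short, and a level per length rests on that length.

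**Figure D1:**
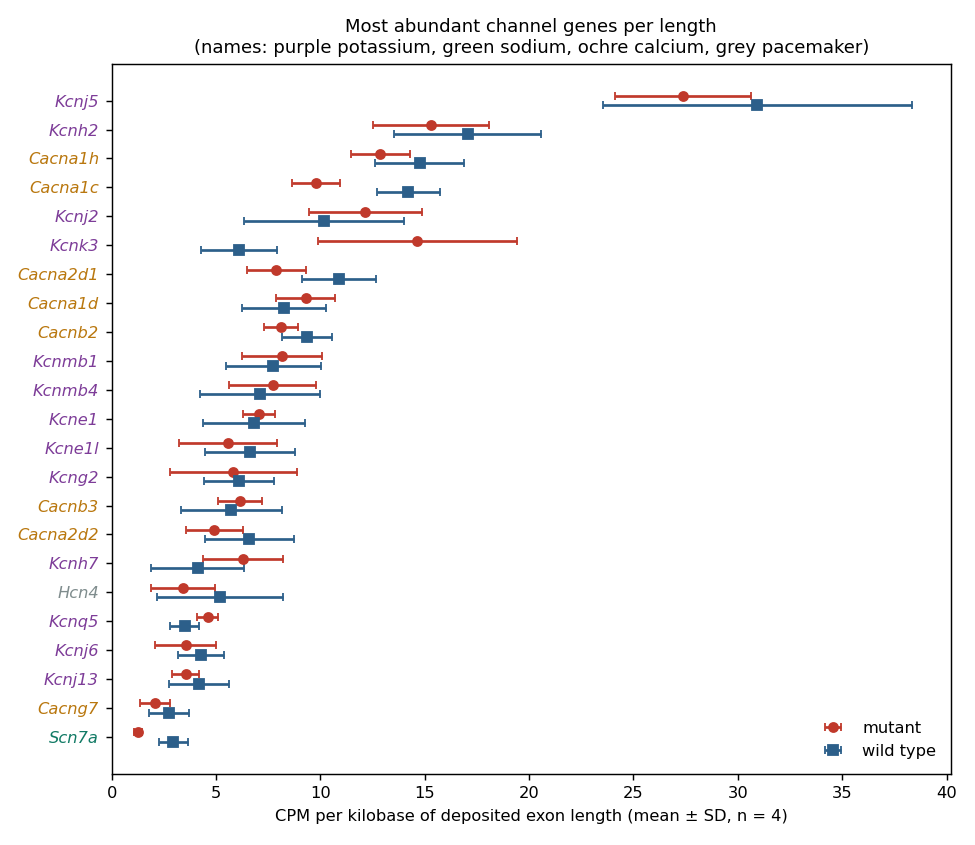
Levels per length of the 23 most abundant channel genes, as CPM per kilobase of deposited exon length, with mutant (red circles) above wild type (blue squares) for each gene; points are means of 4 libraries and bars are SD. Kcnj5 stood highest in both groups, Kcnk3 lay higher in mutant, and Cacna1c and Scn7a lay lower in mutant.

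The comparison of mutant with wild type asked which channel transcripts differ between outflow tracts with and without the deletion of Mef2c in anterior heart field cells. Of the 85 described members, 60 passed edgeR's filter on low counts and were tested, and 4 of these passed the threshold (adjusted p under 0.05 over all 14757 genes tested). Kcnk3 rose, and Scn7a, Kcna4 and Cacna1c fell. That is 6.67% of the tested members, beside 1.5% of all tested genes that passed. By direction, 1 member was higher and 3 were lower, beside 0.562% of all tested genes that were higher and 0.942% that were lower. At an unadjusted p under 0.05 there were 18 of 60 members (30.0%), beside 11.4% of all tested genes. In whole tissue, fewer cells of a type and less RNA per cell cannot be told apart.

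Kcnk3 (ENSMUSG00000049265, chromosome 5, 30890543 to 30927643, plus strand, mm9) encodes TASK-1, an acid-sensitive background potassium channel that helps to set the resting potential in heart and in arterial smooth muscle. It had 46.1, 45.4, 48.7 and 83.0 CPM in mutant libraries 1 to 4, against 22.7, 33.0, 20.5 and 16.9 CPM in wild-type libraries 1 to 4. Every mutant library lay above every wild-type library, and mutant library 4 stood well above the other mutants. The gene averaged 55.8 ± 18.2 CPM in mutant and 23.3 ± 6.89 CPM in wild type (SD, n = 4 each), a 2.40-fold higher level with a log2 fold change of 1.26 ± 0.245 (SE, adjusted p = 0.0332, edgeR quasi-likelihood test with Benjamini-Hochberg adjustment). Within lanes the log2 fold change was 0.72 in lane 1 and 1.81 in lane 2, a difference that failed its own test after adjustment (unadjusted p = 0.0130, adjusted p = 0.181, edgeR). Without mutant library 4 the log2 fold change was 1.01 and the call held (adjusted p = 0.0222, edgeR). It was lost when mutant library 1, 2 or 3 or wild-type library 1, 3 or 4 was left out, at 1.14 to 1.35 (adjusted p 0.0524 to 0.102, edgeR). With lane as a covariate it was also lost, at 1.26 (adjusted p = 0.0610, edgeR).

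Of the 5 tested tandem-pore genes, Kcnk3 was the only one that passed. Kcnk6, the next in that family by level, averaged 9.35 CPM in mutant and 6.29 CPM in wild type and did not pass (log2 fold change 0.57, adjusted p = 0.322, edgeR). Kcnk1, Kcnk2 and Kcnk5 had log2 fold changes of -0.39 to -0.63 and did not pass. The smooth muscle marker genes (Acta2, Tagln, Myh11 and Cnn1) summed to 1910 to 2971 CPM in mutant and 2371 to 2970 CPM in wild type, with 0 of 4 passing by edgeR or DESeq2, 0 at an unadjusted p under 0.05 and none at 0. Endothelial markers summed to 459 to 612 CPM in mutant and 339 to 442 CPM in wild type, with none at 0, and 1 of 4, the receptor Tek, passed at a log2 fold change of 0.74. Epicardial markers (Wt1, Tcf21, Tbx18 and Upk3b) summed to 170.5 to 222 CPM in mutant and 98.9 to 179 CPM in wild type, with none at 0. By edgeR 0 of these 4 passed, 3 had an unadjusted p under 0.05, and DESeq2 called 1, Tcf21. Over all tested genes these shares were 1.5%, 11.4% and 2.98%. The part of these cell types in the Kcnk3 result was not tested.

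Scn7a (ENSMUSG00000034810, chromosome 2, 66511482 to 66622971, minus strand, mm9) belongs to the sodium channel alpha subunit family by sequence and is known as a sodium-sensing channel of glia, with a divergent voltage sensor. It had 9.77, 8.64, 11.0 and 7.89 CPM in mutant libraries 1 to 4, against 21.4, 17.9, 28.9 and 18.3 CPM in wild-type libraries 1 to 4. The groups did not overlap, and each group's libraries lay close together apart from a higher wild-type library 3. Scn7a averaged 9.33 ± 1.35 CPM in mutant and 21.6 ± 5.10 CPM in wild type (SD, n = 4 each), a log2 fold change of -1.21 ± 0.184 (SE, adjusted p = 0.00499, edgeR), so its level was 2.31-fold lower. It passed in all 22 alternative settings run, with log2 fold changes between -1.47 and -0.71 and adjusted p between 5.40e-07 and 0.0480 by the test of each setting. It was the only channel gene that did so.

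The glial and neural crest markers gave little to set beside the fall of Scn7a. Their sum, nearly all of it Sox9, was 200 to 267 CPM in mutant and 123 to 241 CPM in wild type, 0 of 3 tested markers passed by edgeR or DESeq2 or had an unadjusted p under 0.05, and Foxd3 had no read in any library. The part of such cells in the Scn7a result was not tested.

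Kcna4 (ENSMUSG00000042604, chromosome 2, 107130796 to 107138659, plus strand, mm9) encodes a rapidly inactivating potassium channel that carries part of the transient outward current. It had 2.44, 2.29, 1.96 and 1.598 CPM in mutant libraries 1 to 4, against 4.91, 5.09, 7.02 and 4.10 CPM in wild-type libraries 1 to 4. All mutant libraries lay below all wild-type libraries, at a low level that rested on 76 mutant reads and 171 wild-type reads. Its means were 2.07 ± 0.374 CPM in mutant and 5.28 ± 1.24 CPM in wild type (SD, n = 4 each), with a log2 fold change of -1.35 ± 0.266 (SE, adjusted p = 0.0242, edgeR). It no longer passed when mutant library 1, 2, 3 or 4 or wild-type library 1 or 3 was left out, at log2 fold changes of -1.44 to -1.18 (adjusted p 0.0566 to 0.0876, edgeR).

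Cacna1c (ENSMUSG00000051331, chromosome 6, 118542322 to 119146249, minus strand, mm9) had the smallest change of the 4 and the highest level. It had 90.2, 77.9, 79.99 and 100.2 CPM in mutant libraries 1 to 4, against 129.9, 143.1, 120.8 and 111.6 CPM in wild-type libraries 1 to 4. The groups did not overlap, though mutant library 4 came near wild-type library 4. Cacna1c averaged 87.1 ± 10.3 CPM in mutant and 126.4 ± 13.4 CPM in wild type (SD, n = 4 each), a 1.45-fold lower level with a log2 fold change of -0.54 ± 0.106 (SE, adjusted p = 0.0242, edgeR). It overlaps Dcp1b on the other strand, which had 1180 reads beside the 7380 of Cacna1c, and the use of strand in counting is not given in these sources.

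Heart muscle markers were mixed beside the fall of Cacna1c. Of 6 cardiomyocyte markers, 1 (Myh7) passed, lower in mutant, beside 1.5% of all tested genes, and none was at 0. Ttn had a log2 fold change of -0.43, Tnni1 -0.20, Actc1 -0.06, Myh6 -0.03 and Tnnt2 0.07. These did not pass (adjusted p 0.139 to 0.973, edgeR). DESeq2 called 2, Myh7 and Ttn, beside 2.98% of all. Of 6 chamber markers, 1 (Myl3) passed by edgeR, also lower in mutant, beside the same 1.5%. Their sums were 357 to 1147 CPM in mutant and 940 to 1860 CPM in wild type, with none at 0. Adjusted for the chamber gene level, the log2 fold change of Cacna1c was -0.34 and did not pass (adjusted p = 0.138, edgeR). Without mutant library 4 and wild-type library 2 it was -0.55 and passed (adjusted p = 0.00889, edgeR). It no longer passed either when mutant library 1, 2 or 3 or wild-type library 1 or 3 was left out (adjusted p 0.0510 to 0.0974, edgeR). All 6 chamber markers had values below 0 (median log2 fold change -0.96), so the fit adjusted for their level cannot tell that level apart from genotype. The part of heart muscle content in the Cacna1c result was not tested beyond these fits.

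**Figure D2:**
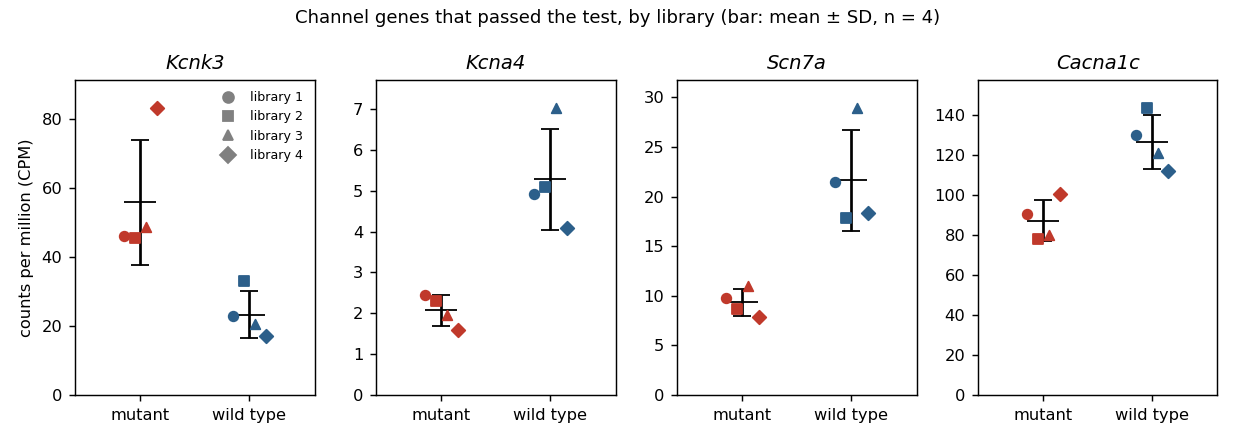
Levels in CPM of the 4 channel genes that passed the test, with mutant libraries (red) left of wild-type libraries (blue), 1 marker shape per library number, and the mean with SD of 4 libraries. Kcnk3 lay higher in every mutant library, and Kcna4, Scn7a and Cacna1c lay lower in every mutant library.

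Promoter sequences of the members that fell are shown because the deleted gene encodes a MEF2 factor. RefSeq's table for GRCm38.p6 holds windows of 300 bases, 250 before to 50 after a start, for 61 of the 85 described members and for 3 of the 4 called genes, Scn7a, Kcna4 and Cacna1c. Capitals mark CANNTG, the E-box bound by basic helix-loop-helix factors, which reads alike on both strands. The windows run 5′ to 3′ along the gene.
Scn7a, chr2:66784861-66785160, minus strand: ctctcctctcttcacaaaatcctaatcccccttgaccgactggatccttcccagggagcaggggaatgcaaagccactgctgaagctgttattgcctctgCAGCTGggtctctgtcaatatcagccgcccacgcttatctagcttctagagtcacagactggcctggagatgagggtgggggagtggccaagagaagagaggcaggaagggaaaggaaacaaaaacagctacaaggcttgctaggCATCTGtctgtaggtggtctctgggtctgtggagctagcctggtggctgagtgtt
Kcna4, chr2:107290339-107290638, plus strand: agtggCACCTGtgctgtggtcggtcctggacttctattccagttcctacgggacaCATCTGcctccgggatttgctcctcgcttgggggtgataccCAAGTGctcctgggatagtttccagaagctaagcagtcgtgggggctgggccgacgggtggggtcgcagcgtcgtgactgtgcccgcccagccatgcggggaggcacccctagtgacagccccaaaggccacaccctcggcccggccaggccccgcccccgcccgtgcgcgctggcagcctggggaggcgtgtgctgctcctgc
Cacna1c, chr6:119196360-119196659, minus strand, the most upstream of its 3 windows: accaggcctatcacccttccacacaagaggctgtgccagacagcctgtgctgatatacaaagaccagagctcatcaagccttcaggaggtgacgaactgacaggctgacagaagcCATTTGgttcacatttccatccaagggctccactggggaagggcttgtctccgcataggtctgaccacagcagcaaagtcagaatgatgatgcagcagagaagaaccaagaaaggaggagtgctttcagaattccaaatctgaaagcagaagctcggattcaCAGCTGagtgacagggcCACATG
The MEF2 consensus, searched on both strands, matched none of the 5 windows of these 3 genes. Over the 90 windows of described members it occurred in 1 (1.11%), that of the inward rectifier Kcnj16, beside 3.19% of all 32851 windows in the table. CANNTG occurred in 66.7% of the members' windows and in 72.3% of all windows. No match says only that these letters are not in this window.

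Among the other 13 voltage-gated potassium channel genes tested none passed by edgeR, and 4 had an unadjusted p under 0.05, beside 11.4% of all tested genes. DESeq2 called 8 channel genes in all, where it called 2.98% of all genes. Kcnq3, a subunit of the M current of neurons, had 0.777 to 1.40 CPM in mutant and 1.24 to 4.64 CPM in wild type, overlapping ranges, and did not pass (log2 fold change -1.53, adjusted p = 0.106, edgeR).

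The largest positive value of an uncalled member was that of Kcnh1, an ether-a-go-go channel found in the embryonic brain and in proliferating cells. It had 1.44, 3.18, 5.20 and 4.10 CPM in mutant libraries 1 to 4, against 2.04, 0.962, 0.825 and 0.956 CPM in wild-type libraries 1 to 4. Mutant library 1 lay below wild-type library 1, so the groups overlapped, and the log2 fold change of 1.49 did not pass (adjusted p = 0.141, edgeR). Kcnh7, a relative of Kcnh2, had 68.8 to 126.5 CPM in mutant and 32.5 to 105.6 CPM in wild type, with a log2 fold change of 0.61 that did not pass (adjusted p = 0.641, edgeR). It overlaps Gca on the other strand, which had 2852 reads beside its 5387. Kcnc2 followed at 0.59 (adjusted p = 0.716, edgeR).

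The channels best known for repolarising heart muscle cells did not pass. Kcnh2 had 69.4, 62.5, 71.2 and 93.4 CPM in mutant libraries 1 to 4 and 87.7, 104.6, 68.8 and 69.4 CPM in wild-type libraries 1 to 4, overlapping ranges, and its log2 fold change was -0.16 (adjusted p = 0.777, edgeR). It was -0.54 in lane 1, where it passed (adjusted p = 0.0396, edgeR), and 0.24 in lane 2. Kcnq1, the pore of the slow delayed rectifier, stood at -0.14 on that scale (adjusted p = 0.871, edgeR), and Kcne1, its partner subunit, of 0.05 (adjusted p = 0.965, edgeR). Kcnd3, a pore of the transient outward current, stood at 0.15 (adjusted p = 0.891, edgeR). Its relative Kcnd2 had 77 reads and Kcna5, an atrial channel, had 83, too few to be tested. Kcnip2, the partner of the Kcnd channels, fell under the minimum with 39 reads.

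No inward rectifier passed by edgeR, and 3 of 8 had an unadjusted p under 0.05, beside 11.4% of all tested genes. DESeq2 called 1 (Kcnj11), beside 2.98% of all. Values below 0 were found for 7 of the 8, beside 51.3% of all. Kcnj11, the pore of the ATP-sensitive potassium channel, had 1.67, 0.381, 0.785 and 1.598 CPM in mutant libraries 1 to 4, against 3.43, 5.64, 2.06 and 3.28 CPM in wild-type libraries 1 to 4. The groups did not overlap, yet the log2 fold change of -1.67 did not pass (adjusted p = 0.0920, edgeR). Kcnj3, which pairs with Kcnj5 in the atrial acetylcholine-activated channel, had 0.589 to 1.498 CPM in mutant and 1.09 to 4.64 CPM in wild type (log2 fold change -1.40, adjusted p = 0.276, edgeR). Kcnj5 itself had 130.5, 102.2, 123.9 and 135.7 CPM in mutant libraries 1 to 4 and 176.4, 155.6, 122.6 and 101.8 CPM in wild-type libraries 1 to 4. Its groups overlapped (log2 fold change -0.18, adjusted p = 0.746, edgeR), with -0.52 in lane 1 and 0.20 in lane 2. Kcnj2, at a log2 fold change of 0.25, did not pass either (adjusted p = 0.803, edgeR). Kcnj12, a related rectifier, had 93 reads and was not tested.

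Channels opened by intracellular calcium or sodium and their subunits showed no call by edgeR or DESeq2 among 5 tested. An unadjusted p under 0.05 was found for 1, beside 11.4% of all tested genes. Kcnmb1, the smooth muscle subunit of the large-conductance channel, had 30.1, 29.6, 30.9 and 46.2 CPM in mutant libraries 1 to 4 and 34.9, 43.6, 30.8 and 20.6 CPM in wild-type libraries 1 to 4. The groups overlapped, mutant library 4 stood above the other mutants, and the log2 fold change was 0.08 (adjusted p = 0.938, edgeR). The pore gene of that channel, Kcnma1, had 56 reads in all and was not tested. Kcnq5, a smooth muscle and neuronal channel, had 29.7 to 38.8 CPM in mutant and 20.6 to 31.3 CPM in wild type (log2 fold change 0.39, adjusted p = 0.322, edgeR). Of the 8 smooth muscle channel genes listed, 4 were tested and 2 passed by edgeR, beside 1.5% of all tested genes. They are the calls of Kcnk3 (higher) and Cacna1c (lower) described above.

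The pacemaker gene Hcn4, which marks the first beating heart cells and later the conduction system, was highest in 2 libraries. It had 9.88, 11.7, 8.64 and 21.2 CPM in mutant libraries 1 to 4, against 13.8, 36.4, 14.3 and 13.3 CPM in wild-type libraries 1 to 4. The highest of each group were mutant library 4 and wild-type library 2, the groups overlapped, and the log2 fold change of -0.59 did not pass (adjusted p = 0.653, edgeR). Within lanes it was -1.20 in lane 1 and 0.11 in lane 2. Hcn3 had 54 reads, too few to be tested, and Hcn2 had 16. Of the 60 tested members, 10 (16.7%) had their highest mutant value in mutant library 4 and their highest wild-type value in wild-type library 2. That share was close to the 15.95% of all tested genes, so the pattern was not particular to channel genes. The members with it included Cacna2d2, Cacna1c, Hcn4, Kcnmb1, Kcng2, Kcnk3, Kcnh2, Kcnh7 and Kcnq5. Adjusted for the chamber gene level, the values of Hcn4, Kcnh2 and Cacna2d2 turned to 0.24, 0.21 and 0.11 and did not pass (adjusted p 0.522 to 0.912, edgeR), and that of Kcnk3 was 1.80 and passed (adjusted p = 1.15e-05, edgeR). Signs also changed in members without the pattern. Kcnj5 went from -0.18 to 0.03, Kcnj2 from 0.25 to -0.18 and Cacna1g from 0.01 to -1.58, and none of these passed (adjusted p 0.405 to 0.972, edgeR). The chamber genes themselves had a median log2 fold change of -0.96, so this fit cannot tell their level apart from genotype. The part of chamber muscle in these levels was not tested beyond this fit.

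**Figure D3:**
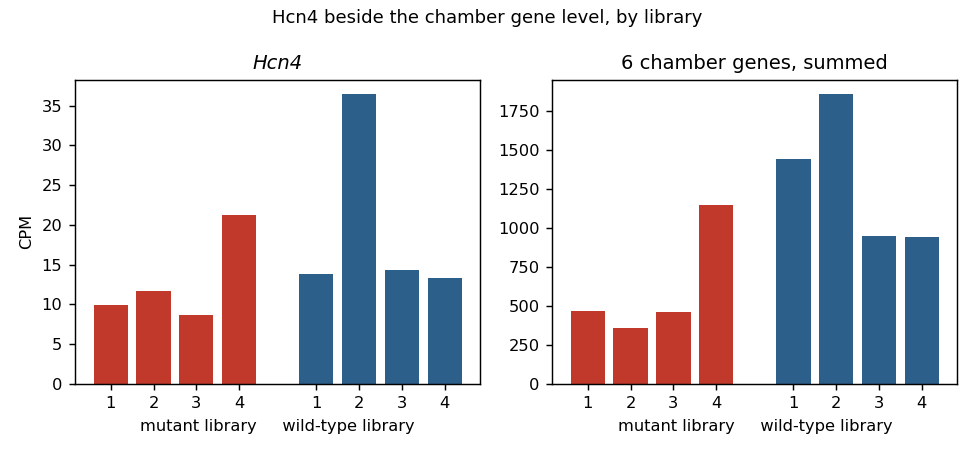
Levels in CPM of Hcn4 and the summed level of 6 chamber genes in each library, with mutant libraries 1 to 4 (red) left of wild-type libraries 1 to 4 (blue). Hcn4 was highest in mutant library 4 and wild-type library 2, the libraries with the highest chamber gene sum of their group.

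Scn8a, a sodium channel of neurons, was low. It had 0.444, 1.14, 1.57 and 0.599 CPM in mutant libraries 1 to 4, against 1.67, 1.65, 3.03 and 5.06 CPM in wild-type libraries 1 to 4. The groups came close but did not overlap, and the log2 fold change of -1.57 did not pass (adjusted p = 0.184, edgeR). The beta subunit Scn2b, at a log2 fold change of -0.25, did not pass (adjusted p = 0.802, edgeR), and Scn4b, another beta subunit, with 58 reads, was not tested. Several of the low members are known from neurons. Neuronal markers summed to 33.6 to 48.5 CPM in mutant and 38.2 to 52.3 CPM in wild type. None of the 8 listed was at 0 in every library. Of 6 tested, 0 passed by edgeR or DESeq2 and 2 had an unadjusted p under 0.05, beside 11.4% of all tested genes. The part of neurons in these values was not tested.

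In the calcium class, the other pore-forming genes did not pass by edgeR. Cacna1d, an L-type channel of pacemaker cells, had 93.7, 66.5, 77.8 and 90.1 CPM in mutant libraries 1 to 4 and 70.8, 98.6, 57.6 and 64.9 CPM in wild-type libraries 1 to 4. These ranges overlapped (log2 fold change 0.17, adjusted p = 0.766, edgeR). The gene overlaps Dcp1a on the other strand, which had 3261 reads beside the 5437 of Cacna1d, so its level depends on the use of strand in counting, which is not given. Cacna1h at -0.20 and Cacna1g, another T-type channel, at 0.01 did not pass (adjusted p = 0.577 and 0.998, edgeR). The value of Cacna1g was 1.95 in lane 1, where it passed (adjusted p = 0.0200, edgeR), and -1.52 in lane 2, and it was 0.96 without wild-type library 4. That difference between lanes did not pass its own test after adjustment (unadjusted p = 0.00158, adjusted p = 0.0918, edgeR). Cacna1a, a channel of nerve endings, had 6.11 to 7.75 CPM in mutant and 8.94 to 13.5 CPM in wild type. Its groups did not overlap, but its log2 fold change of -0.72 did not pass by edgeR (adjusted p = 0.102) and passed by DESeq2 (adjusted p = 0.0313).

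The accessory calcium channel subunits, which bring pores to the membrane and tune their gating, showed no call by edgeR or DESeq2 among 7 tested. An unadjusted p under 0.05 was found for 1, beside 11.4% of all tested genes. Cacnb2, the main beta subunit of heart, had 68.8, 67.0, 62.6 and 79.2 CPM in mutant libraries 1 to 4 and 91.4, 85.7, 74.2 and 69.5 CPM in wild-type libraries 1 to 4, overlapping ranges, and its log2 fold change was -0.21 (adjusted p = 0.522, edgeR). Cacna2d1, an extracellular subunit, had 29.3, 38.3, 31.7 and 25.0 CPM in mutant libraries 1 to 4 and 53.1, 41.2, 39.6 and 37.7 CPM in wild-type libraries 1 to 4. Mutant library 2 lay above wild-type library 4, and the log2 fold change of -0.47 did not pass (adjusted p = 0.191, edgeR). Its relative Cacna2d2 stood at -0.42 (adjusted p = 0.597, edgeR), with -1.05 in lane 1, where it passed (adjusted p = 0.0229, edgeR), and 0.25 in lane 2.

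Over the tested members, 42 of 60 (70.0%) had values below 0, beside 51.3% of all tested genes, and the median log2 fold change was -0.20, beside -0.006 for all. The groups did not overlap for 9 of 60 (15%), beside 6.72% of all tested genes. They included Kcnk3, Kcna4, Kcnj11, Scn7a, Scn8a, Cacna1a and Cacna1c. Of the 25 described members that were not tested, 15 had the lower mean in mutant and 10 the higher, and 2, Cacnb4 and Kcnf1, did not overlap. The shares over all genes cover tested genes only, and none was computed for untested genes of like depth. These low-count members therefore have no background to be read against. The cardiac action potential list of 27 channels had 19 tested members, with 1 higher (Kcnk3), 1 lower (Cacna1c) and a median of -0.16. Over all tested genes 0.562% were higher and 0.942% lower. These counts describe the members and were not tested as a set.

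**Figure D4:**
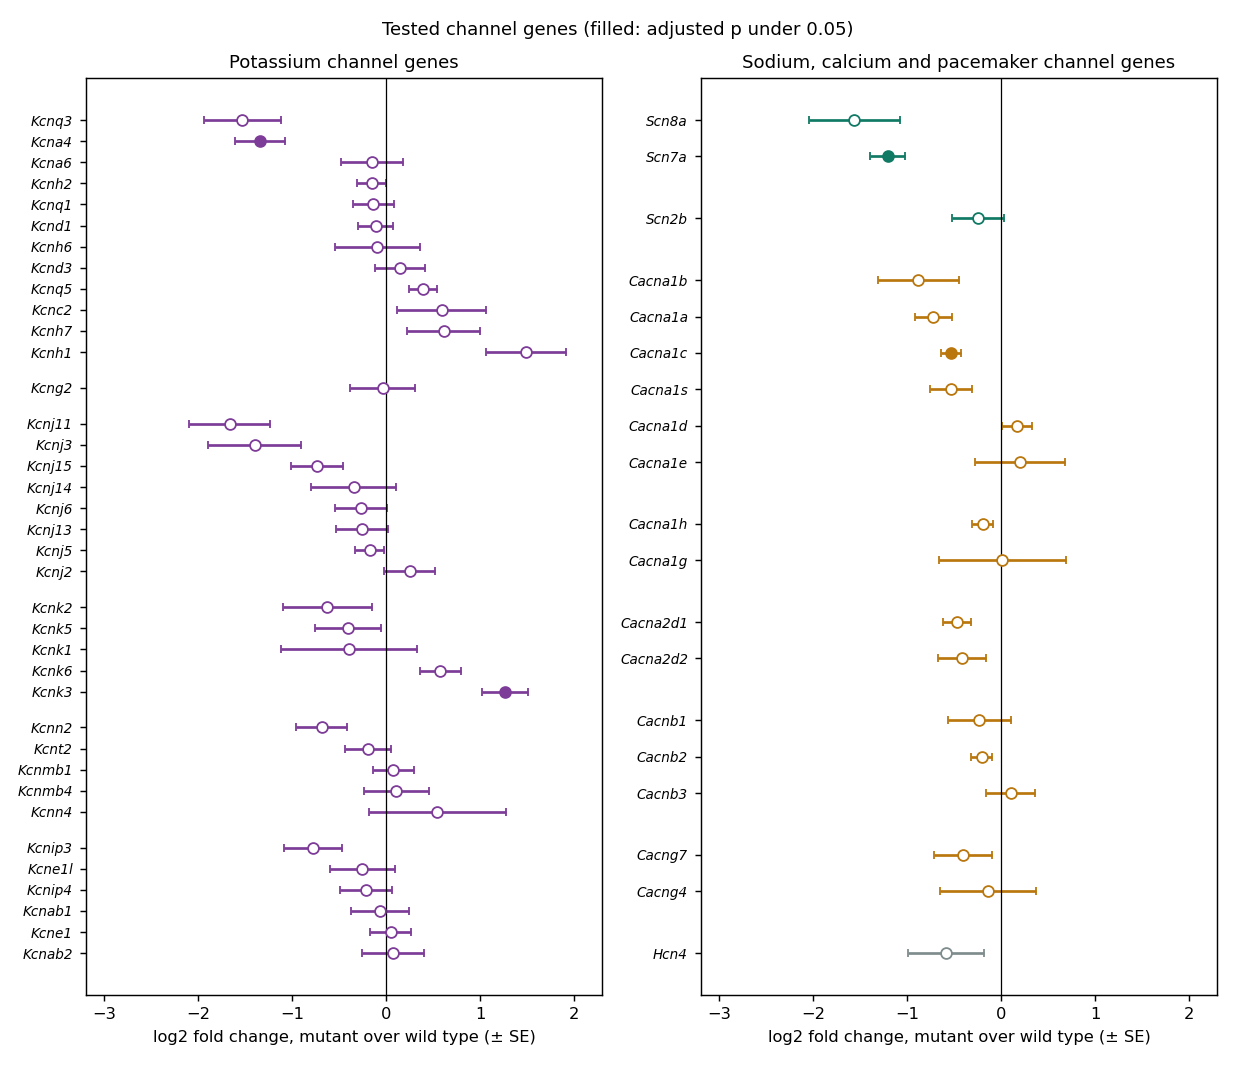
Log2 fold changes of mutant over wild type with SE for 56 of the 60 tested channel genes, potassium on the left and sodium (green), calcium (ochre) and pacemaker (grey) on the right, grouped by subunit family. Filled points passed at an adjusted p under 0.05; they are Kcnk3 to the right of 0 and Kcna4, Scn7a and Cacna1c to the left.

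The 4 calls differed in how they held under other settings. Scn7a passed in 22 of 22 alternatives, Cacna1c in 13, and Kcnk3 and Kcna4 in 11 each, and each kept its direction in all 22. The test of group by lane passed for 0 members by edgeR, with 16 of 60 (26.7%) at an unadjusted p under 0.05, beside 16.6% of all tested genes. Tested by itself, lane 1 gave 9 called members beside 5.63% of all genes, and lane 2 gave 3 beside 0.786%. Adjusting for chamber genes gave 5 called members, beside 1.66% of all genes. By lane, the log2 fold changes in lanes 1 and 2 were -1.10 and -1.33 for Scn7a, -1.08 and -1.64 for Kcna4 and -0.70 and -0.38 for Cacna1c.

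**Figure D5:**
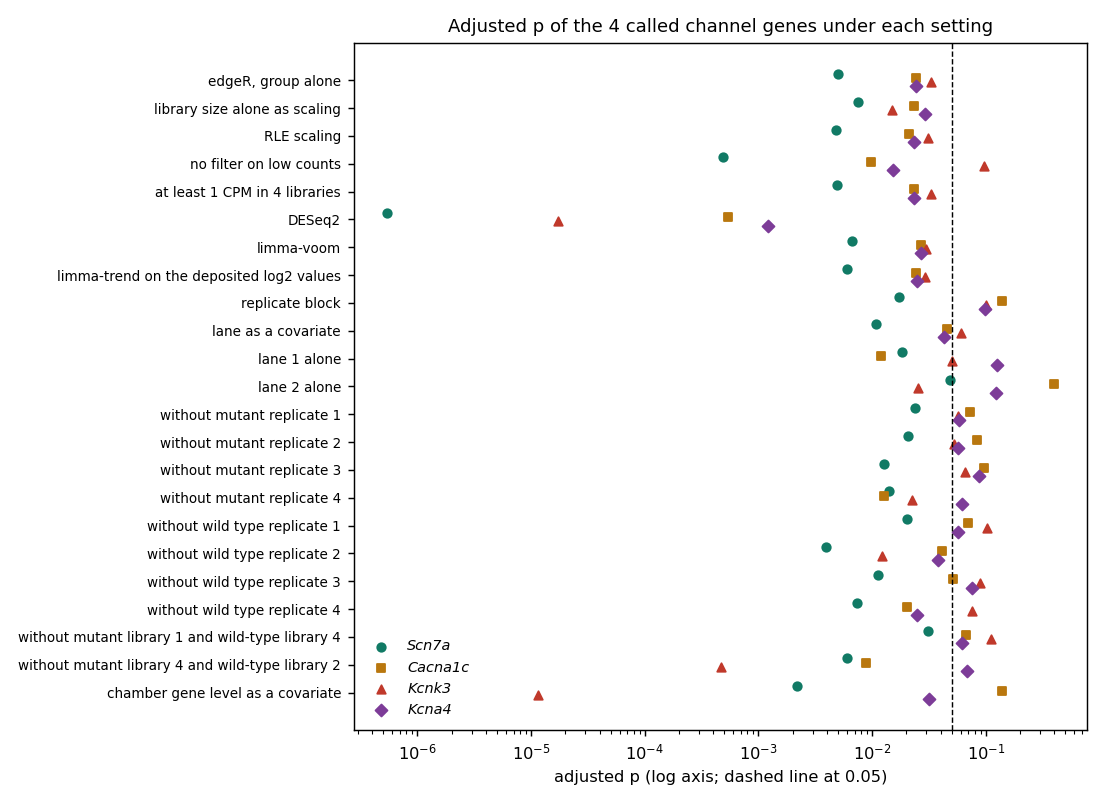
Adjusted p on a log axis of the 4 called channel genes under the group-alone edgeR fit and 22 alternative settings, with 1 row per setting and a dashed line at 0.05. Scn7a lies left of the line in every row, while Cacna1c, Kcnk3 and Kcna4 cross it in several.

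The authors' own test gave more calls. Per the authors' deposited table, a set of 12 of the 85 described channel genes (14.1%) had a false discovery rate under 0.05, beside 3.47% of all genes with at least 40 reads. Of the 12, 11 were tested here and 4 passed here, the same 4 genes named above. In the authors' deposited table the rate was 8.28e-13 for Kcnk3, 5.86e-07 for Scn7a, 0.00485 for Cacna1c and 0.00837 for Kcna4. Of the 11, the modified log2 ratio in the authors' deposited table had the opposite sign for 2, at -0.41 for Kcnh1 and 0.01 for Cacna2d1. The authors' deposited table also holds an exon test, which asks whether 1 exon changes unlike the rest of its gene, with a score whose scale is not stated. By that score in the authors' deposited table, 6 of the 85 described channel genes were above 0. Over all 33495 genes of that table, those without reads included, 605 were above 0. These counts rest on unlike sets, and no share over genes with at least 40 reads was computed. Cacna1d ranked 34, with a log2 ratio of 1.23 for its most changed exon, and Cacna1a ranked 125 with 2.13, in the authors' deposited table. Scn7a ranked 199 with -2.70, Cacna1s, the skeletal muscle L-type channel, 200 with -2.17 and Kcnq1 227 with 1.61 in the authors' deposited table.

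Other genes that handle ions were read from lists in the same fit. Over all tested genes 1.5% passed by edgeR, 11.4% had an unadjusted p under 0.05, and DESeq2 called 2.98%. Of 17 tested channel partners, 1 passed by edgeR, lower in mutant. It was Ank2, the ankyrin that anchors ion transporters in heart muscle, with 26.7 ± 3.73 CPM in mutant and 51.1 ± 6.81 CPM in wild type (SD, n = 4 each; log2 fold change -0.94, adjusted p = 0.00309, edgeR). Among these partners 4 had an unadjusted p under 0.05 and DESeq2 called 3. Values below 0 were found for 8 of the 17, with a median log2 fold change of 0.06. Of 9 sodium pump and exchanger genes 1 rose and 2 fell, among them the pump regulator Fxyd1, which stood at -1.12 on the log2 scale (adjusted p = 0.0397, edgeR). In that list 4 had an unadjusted p under 0.05 and DESeq2 called 3. Of 11 calcium cycling genes, 1 passed by edgeR, the calcium release channel Ryr3, which fell by 1.43 on the log2 scale (adjusted p = 0.00994, edgeR). In the calcium cycling list 3 had an unadjusted p under 0.05 and DESeq2 called 2. Of 4 gap junction genes 0 passed by edgeR or DESeq2, with 2 at an unadjusted p under 0.05. Of 13 transcription factors of the conduction system 0 passed by edgeR, with 5 at an unadjusted p under 0.05 and 2, Tbx3 and Hopx, called by DESeq2.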

How the data were processed

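Outflow tract RNA of 4 mutant and 4 wild-type samples was analysed. The authors deposited whole-number raw counts for each gene in each library. Alignment used TopHat2 2.0.4 and mm9, per the submitters' processing notes. How reads were counted, and whether by strand, is not given in these sources. The normalized log2 value per library, the modified log2 ratio and the score of each test (false discovery rate on a minus 10 log10 scale, converted here, and exon test) were deposited by the authors, per the file headers. Columns named control were taken as wild type.

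Counts were tested with edgeR 4.0.16 (R 4.3.3): filterByExpr, TMM scaling, robust two-sided quasi-likelihood test on group alone, Benjamini-Hochberg over 14757 genes, threshold 0.05. The SE was taken from the log2 fold change and F. CPM used TMM-scaled library sizes, and log2 CPM a prior count of 2. Alternatives were other scalings and filters, DESeq2 1.42.0, limma 3.58.1 (voom, and trend on the deposited log2 values), a replicate block, lane, chamber gene level and left-out libraries. Within-group pairs of libraries differed beyond sampling noise (chi-square over its degrees of freedom 5.77 to 20.7), so none was a copy. The floor covers counting error only, while the SD and SE also hold the scatter among libraries.

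Named genes were every called member, the cardiac and smooth muscle channel lists, the 3 highest per length in each class, the 3 largest values in each direction not called and the members nearest the minimum of 40 reads, 39 genes by this rule, of which 34 are named. Some genes of the family and lists enter the counts but are not reported here by name. Others are named as described in the text. The members and lists were chosen with earlier results of these data known. Python 3.11.15, pandas 2.3.3 and matplotlib 3.10.9 made tables and figures. The procedure was tested on simulated data.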

Additional observations from a re-analysis of the deposited data

Results flagged for a closer look

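For every named gene, the 4 libraries of a group were screened for 1 that lay far from the other 3. Of 68 groups, 5 had such a library, where chance gives about 5%. Mutant library 4 stood out at a log2 CPM of 6.379 for Kcnk3 (the other mutants at 5.51 to 5.61) and 5.538 for Kcnmb1 (4.90 to 4.96), and at -1.602 for Kcnt1 (0.010 to 0.318), where it had 1 read. Wild-type library 2 stood out at 5.196 for Hcn4 (the other wild types at 3.75 to 3.86). Wild-type library 1 stood out at 1.182 for Kcnh1 (0.077 to 0.253), where it had 22 reads. Mutant library 4 and wild-type library 2 had the highest chamber gene sums of their groups, 1147 and 1860 CPM. Adjusted for the chamber gene level, the log2 fold change of mutant over wild type was 1.80 for Kcnk3, 0.50 for Kcnmb1 and 0.24 for Hcn4, against 1.26, 0.08 and -0.59 without that term. That term itself differed between the groups (median log2 fold change of the chamber genes -0.96), so the fit cannot tell it apart from genotype. The part of chamber tissue was not tested beyond this fit.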

How the results depend on the processing

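Against 4 called channel genes (1 higher, 3 lower), DESeq2 gave 8 (7 lower). Lane 1 alone gave 9 (2 higher, 7 lower) and lane 2 alone had 2 higher and 1 lower. Calls over all genes moved too, to 2.98%, 5.63% and 0.786% in these settings, beside 1.5%. No filter on low counts, and lane as a covariate, each left 0 higher. Leaving out 1 library gave 1 to 4 calls, 0 to 1 higher and 1 to 3 lower, beside 0.740% to 1.52% of all genes called. Without mutant library 1 and wild-type library 4 there was 1 call, 0 higher and 1 lower, beside 0.638% of all genes. Adjusted for the chamber gene level there were 2 higher, Kcnk3 among them, and the median of the tested members was -0.29. The median was -0.082 by limma-trend on the deposited log2 values, a compressed scale. Same-numbered libraries of the groups had correlations of deviations of -0.05, -0.21, 0.22 and -0.29, beside -0.27 to 0.40 for differently numbered ones. So few values cannot settle whether the numbers pair the samples. With a replicate block 1 channel gene passed, 0 higher and 1 lower, with 76 genes called in all. The cause of each loss was not tested. At 3 counts per library, levels under 0.278 to 0.413 CPM were not measurable. This touches low members whether tested or not, and the tested Kcnj11 lay at the floor in mutant library 2 (0.381 CPM).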
